A study of Mus musculus with 6 samples.

Results

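Integrins and laminins are the receptors and the chief ligands by which muscle and stromal cells hold on to a basement membrane. The genes described here were taken by their names: every protein-coding gene of GENCODE M21, an annotation of mouse build GRCm38, for an integrin alpha subunit, an integrin beta subunit or a laminin alpha, beta or gamma chain. This gave 37 genes of the 18951 in the deposited table, 26 for integrins and 11 for laminins. All 37 genes that meet this rule in the annotation had a row. The rule reads gene names only, but these families were taken up with earlier results of these data known.

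The study compared primary heart muscle cells of neonatal mice after knockdown of Rbm22, which encodes an RNA-binding protein of the spliceosome. Both groups were primary cultures from the hearts of 1-day-old C57BL/6J mice (C57BL/6 in the strain label), with a stated purity above 97.5% by cardiac troponin T staining, and were collected 48 h after transfection. One group of 3 libraries received an siRNA against Rbm22 (si-Rbm22) and the other 3 a scrambled siRNA (si-Control). The labels describe biological replicates without naming separate isolations. The p-values therefore measure only how far these samples spread, which may be technical.

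The libraries held 34269042 to 37344860 reads each. Reads of Rbm22 itself numbered 798, 916 and 774 in the 3 libraries labelled si-Control, called control-labelled from here on, and 533, 466 and 491 in si-Rbm22 (edgeR adjusted p = 4.22e-06, log2 fold change −0.78, SE 0.097). What the control-labelled libraries hold goes against their cell type label. Of 11 cardiomyocyte markers, 6 (Myl2, Myl3, Myl7, Nppa, Mybpc3 and Pln) had 0 reads there, and the 11 together came to 47 to 54.4 CPM (TMM-scaled read counts relative to library size), against 26280 to 40620 CPM in si-Rbm22. Of 7 markers of skeletal muscle precursors, the summed level was 545.1 to 553.3 CPM in the control-labelled libraries and 0.0546 to 0.472 CPM in si-Rbm22, where Myod1, Myf5 and Cdh15 had 0 reads. Every difference given here, that of Rbm22 included, is therefore one between si-Rbm22 libraries and control-labelled libraries that held few heart muscle transcripts. The part of the siRNA in the Rbm22 difference was not tested. No result can be given without the doubtful libraries, since they are the whole group. In bulk RNA, fewer cells of a type and less RNA per cell cannot be told apart.

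An integrin is a pair of transmembrane subunits, an alpha and a beta, that binds matrix outside the cell and talin, kindlin and actin linkers inside it. The alpha subunit largely sets the ligand: laminin, collagen, proteins with an RGD motif such as fibronectin, or counter-receptors on other cells. A laminin is a cross-shaped trimer of an alpha, a beta and a gamma chain that polymerises into the basement membrane. In muscle, the Itga7 product paired with that of Itgb1 is the main integrin receptor for laminin, and Lama2 encodes the laminin chain whose loss causes congenital muscular dystrophy.

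The sequence before the start site is shown for members that differed most, to set a shared motif against the direction of change. RefSeq windows (GRCm38.p6) were held for 23 of the 37 genes, and for 17 of them the RefSeq start lay within 100 bases of the GENCODE start. The sequences are the 150 bases before the RefSeq start for the 2 largest falls and the 2 largest rises among those 17 with a mean of at least 5 CPM in a group, and for Itgb1, the member with the most reads. Capitals mark E-boxes (CANNTG) and GC boxes (GGGCGG on either strand). Itga11 lies on the plus strand at chr9:62677705-62677854, Itgb5 on the plus strand at chr16:33829515-33829664, Itgb1 on the plus strand at chr8:128685504-128685653, Itga8 on the minus strand at chr2:12301945-12302094 and Itga4 on the plus strand at chr2:79255276-79255425.
Itga11: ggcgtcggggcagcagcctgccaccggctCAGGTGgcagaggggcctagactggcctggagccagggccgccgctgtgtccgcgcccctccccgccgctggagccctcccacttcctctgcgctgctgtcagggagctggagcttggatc
Itgb5: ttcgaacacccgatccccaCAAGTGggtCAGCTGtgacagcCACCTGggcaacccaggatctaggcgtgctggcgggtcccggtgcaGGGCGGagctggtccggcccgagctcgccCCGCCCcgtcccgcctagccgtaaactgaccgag
Itgb1: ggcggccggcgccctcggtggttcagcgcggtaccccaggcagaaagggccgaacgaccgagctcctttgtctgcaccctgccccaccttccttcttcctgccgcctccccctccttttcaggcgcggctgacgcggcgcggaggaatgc
Itga8: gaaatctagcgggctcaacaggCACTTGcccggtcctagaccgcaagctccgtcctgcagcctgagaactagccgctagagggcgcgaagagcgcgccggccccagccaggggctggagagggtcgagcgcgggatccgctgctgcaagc
Itga4: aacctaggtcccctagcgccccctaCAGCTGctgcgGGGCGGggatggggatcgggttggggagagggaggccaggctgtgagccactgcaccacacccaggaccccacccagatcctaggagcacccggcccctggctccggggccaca
Both motifs stood before genes of either direction. An E-box stood in 7 of the 17 windows, against 47.7% of 32817 RefSeq promoter windows of the same length, and a GC box in 7 of 17, against 28.6%. Of the 10 windows of genes that were higher in si-Rbm22, 4 held an E-box, and of the 4 windows of genes that were lower, 3 did. A TATAAA box was found in 0 of 17 (7.58% of all windows) and a CArG box, the site of serum response factor, in 0 of 17 (0.917%). A TGANTCA site stood in 1, that of Itgax (4.24%). GGAATG, the TEAD motif, stood in 2, those of Itgb1 and Itga10 (7.58%). All motifs were searched on both strands and counted separately, so that matches of different motifs may overlap. A match is a string of letters, and says nothing of whether a factor binds there.

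Of the 37 genes, 35 had enough reads to be tested and 32 of these passed, with 22 rising and 10 falling in si-Rbm22. The background in this comparison is high: 82% of the 14621 genes tested were called, 43.1% higher and 38.9% lower. The median log2 fold change, si-Rbm22 over si-Control, was 0.91 over the 35 members and 0.05 over all genes tested. Itgav, Itgae and Itgb7 did not pass the test, and Itgad and Itgam were not tested. At least 2-fold, 17 members were higher and 9 lower, where 24.4% and 18.7% of all genes were. The CPM of the groups did not overlap for 32 members, as for 84.2% of all genes tested.

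The summed level of the 37 genes was similar in both groups, at 4658 ± 110 CPM (SD, n = 3) in the control-labelled libraries and 4578 ± 159.9 CPM (SD, n = 3) in si-Rbm22. The integrins together were at 3001 ± 57.3 against 2425 ± 79.7 CPM, and the laminins at 1657 ± 54.8 against 2154 ± 162.5 CPM. In both families, single members differed by far more than these sums, as the plot of levels in every library shows. Exons shared with other genes also make some values uncertain, since the strand setting of the counting is unknown. Beside the cases named below, Itga1 shares 685 exonic bases with Gm49395 on the same strand, and Itga8, Itgav, Lama2, Lama3 and Lamc3 overlap noncoding transcripts on the opposite strand by 197 to 634 bases.

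**Figure D1:**
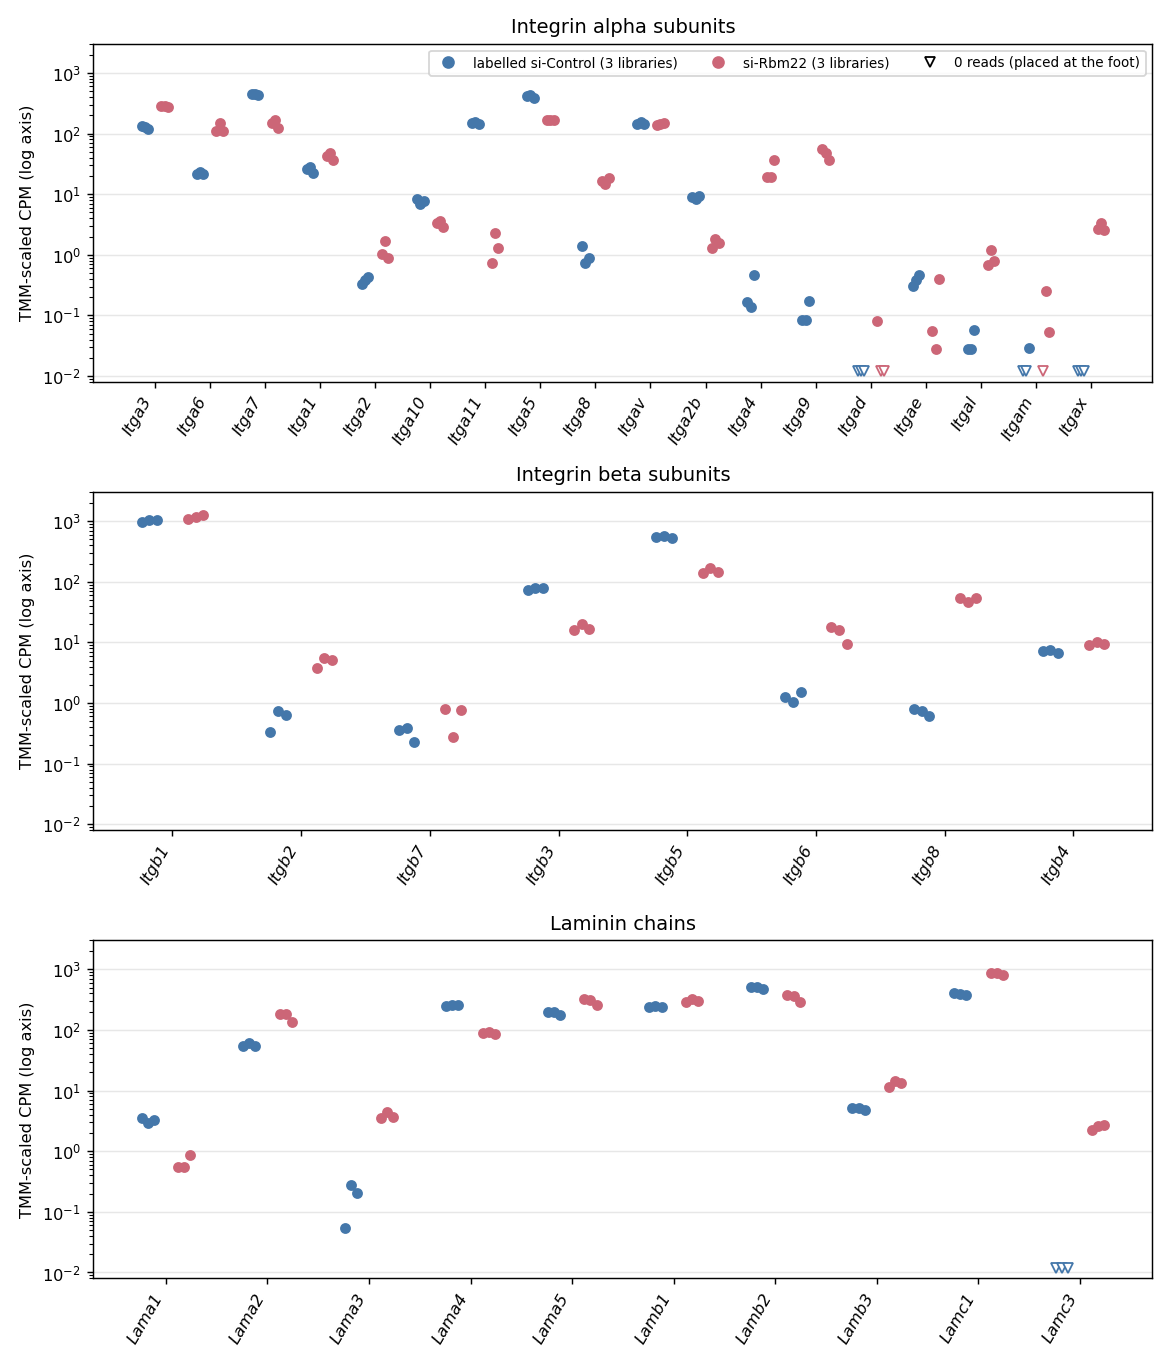
TMM-scaled CPM on a log axis for each gene shown in each library, with control-labelled libraries in blue and si-Rbm22 in red, and open triangles for 0 reads. Itgb1 is the highest integrin in all 6 libraries, while Itga4, Itga9 and Itgb8 lie below 1 CPM in every blue library and above 19 CPM in every red one.

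**Figure D2:**
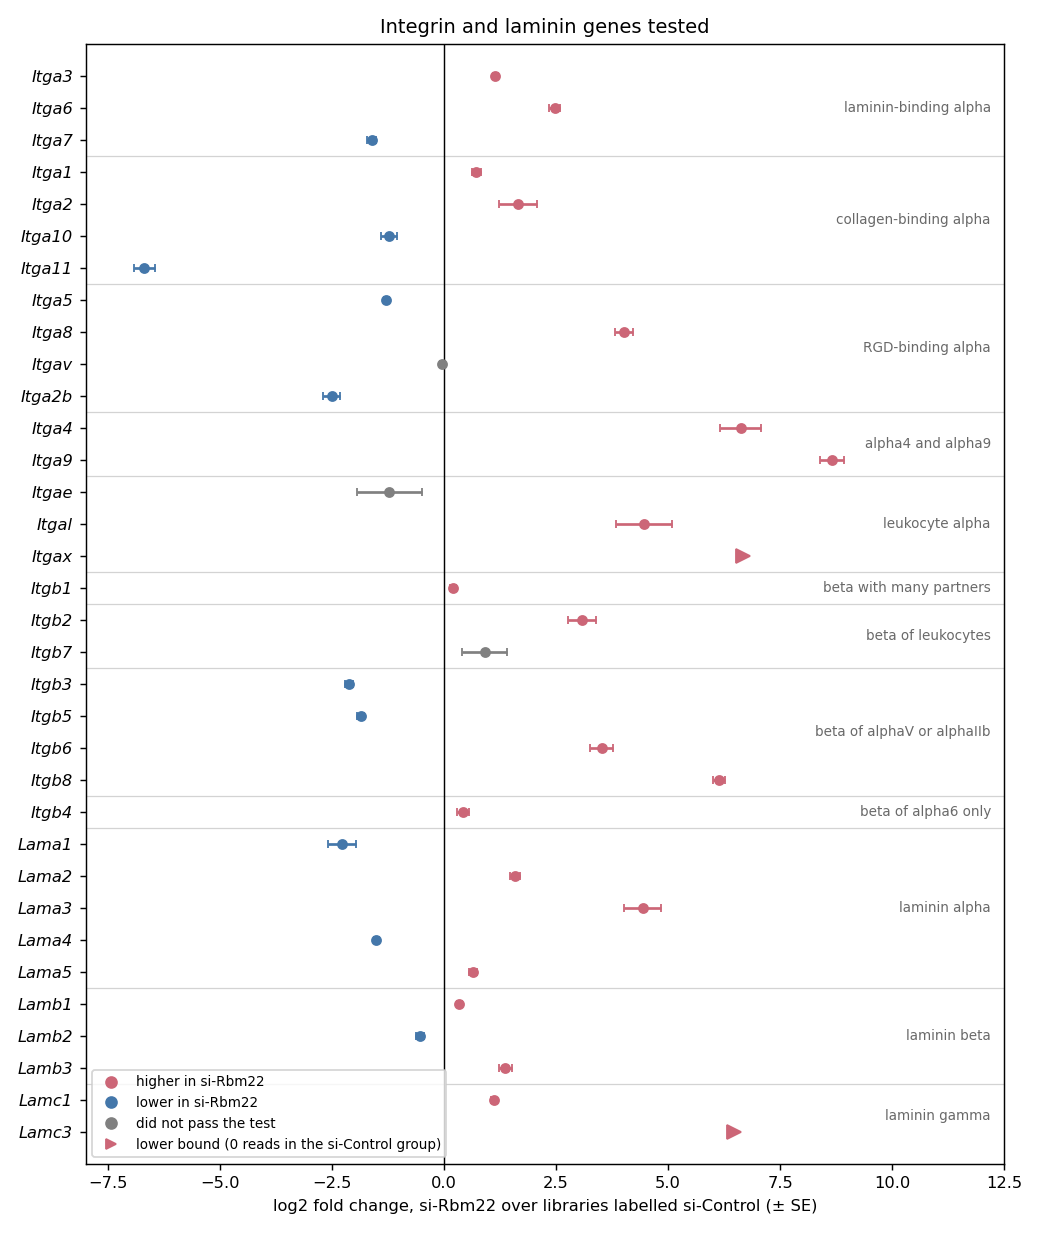
Log2 fold change, si-Rbm22 over si-Control, with its SE, for tested genes by role, and lower bounds as triangles for Itgax and Lamc3, which had 0 reads in the control-labelled libraries. Each ligand class of alpha subunits holds genes on both sides of 0, apart from Itga4 and Itga9, which are both higher in si-Rbm22.

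The laminin-binding alpha subunits moved in opposite directions. Itga7 (ENSMUSG00000025348; chromosome 10, 128933818 to 128958282) was at 454.9, 455.9 and 428.8 CPM in the control-labelled libraries and at 151, 164.9 and 121.2 CPM in si-Rbm22. Every si-Rbm22 library was below every other one, and Itga7 was lower by 1.62 on the log2 scale (SE 0.097, adjusted p = 2.64e-08). Itga3, the alpha subunit of a laminin receptor of epithelia and many other cells (ENSMUSG00000001507; chromosome 11, 95044474 to 95076801), went from 133.2, 128.2 and 121 to 283.9, 283.6 and 274.9 CPM (log2 fold change 1.14, SE 0.057, adjusted p = 2.03e-10). Itga6, which pairs with the product of Itgb1 or of Itgb4 (ENSMUSG00000027111; chromosome 2, 71745616 to 71858416), went from 21.4, 23.1 and 21.9 to 108.8, 148.3 and 110.2 CPM (log2 fold change 2.47, SE 0.118, adjusted p = 7.3e-09). Neither gene's groups overlapped.

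Per kilobase of exon, the leading gene of this class differed between the groups. Itga7 made up 69% ± 0.338 of the class in the control-labelled libraries and 22.2% ± 2.03 in si-Rbm22. Itga3 made up 27.9% ± 0.493 and 61.1% ± 3.3, and Itga6 3.07% ± 0.157 and 16.7% ± 2.06 (SD, n = 3 each). The size of the Itga3 lead in si-Rbm22 depends on the length used. Of all alpha genes there, Itga3, Itga7 and Itga6 had 34.5%, 12.6% and 9.49% per kilobase of exon. Per kilobase of the longest annotated transcript, they had 29.1%, 18.1% and 14.2%. With 3 libraries against 3, an exact two-sided permutation test cannot go below p = 0.10, so these shares carry no test. Skeletal muscle precursor markers moved with Itga7. The platelet sum fell too, as did the fibroblast and the smooth muscle and pericyte sums, with 3 markers higher and 3 lower in each of the last 2. The 7 epicardial and mesothelial markers, from 50.2 to 53.7 CPM in the control-labelled libraries and from 2077 to 2267 CPM in si-Rbm22, moved with Itga3 and Itga6, with Upk3b and Upk1b at 0 reads in the former. So did all tested cardiomyocyte, endothelial, leukocyte, Schwann cell and epithelial markers. The part of these cells in either result was not tested.

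Among the collagen receptors, Itga11 showed the largest fall of any tested member. Itga11 pairs with the product of Itgb1 to bind fibrillar collagen and is known from mesenchymal cells (ENSMUSG00000032243; chromosome 9, 62677826 to 62783982). It was at 150.4, 152.8 and 144.7 CPM in the control-labelled libraries and at 0.737, 2.31 and 1.31 CPM in si-Rbm22, from 27, 83 and 49 reads. The log2 fold change was −6.69 (SE 0.228, adjusted p = 2.85e-08), or 103.1-fold lower. The spread among the si-Rbm22 libraries was wide for its level, but the highest lay far below the lowest control-labelled library.

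The other collagen-binding genes were far lower in the control-labelled libraries than Itga11 was. Itga1, whose product prefers basement membrane collagen (chromosome 13, 114953096 to 115101964), went from 26.3, 27.8 and 22.7 to 43.4, 47.1 and 36.2 CPM (log2 fold change 0.72, SE 0.104, adjusted p = 3e-05). Itga2, a collagen receptor known from platelets and epithelia, had 12 to 15 reads in the control-labelled libraries and 33 to 62 in si-Rbm22, a ratio of 3.16 with a 95% counting interval of 2.21 to 4.6. Itga10, a collagen receptor of cartilage, was lower, at 7.68 ± 0.667 against 3.28 ± 0.391 CPM (SD, n = 3 each). Its value is uncertain, because 1739 of its exonic bases also belong to Gm42957 on the same strand. Per kilobase, Itga11 made up 90.9% ± 0.332 of these 4 genes in the control-labelled libraries and 8.23% ± 3.57 in si-Rbm22, where Itga1 led with 67.9% ± 3.3. Fibroblast markers split between the groups. Of 7, 3 rose and 3 fell. They summed to 10734 to 11707 CPM in the control-labelled libraries and 4621 to 4695 CPM in si-Rbm22. Tcf21 had 0 reads in the former. Skeletal muscle precursor markers fell from a summed mean of 548.7 to 0.22 CPM, with 6 of 6 tested lower. Smooth muscle and pericyte markers, 3 higher and 3 lower, fell in sum from 2748 to 1406 CPM, and the platelet sum fell too. Cardiomyocyte, endothelial, leukocyte, epicardial and mesothelial, Schwann cell and epithelial sums rose. The part of any of these cells in the result was not tested.

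Of the alpha subunits that recognise the RGD motif, 1 rose, 2 fell and 1 did not pass the test. Itga5, which with the product of Itgb1 forms the classical fibronectin receptor (ENSMUSG00000000555; chromosome 15, 103344286 to 103366763), was at 414.1, 426.8 and 382.8 CPM in the control-labelled libraries. In si-Rbm22 it was at 165.6, 166.9 and 168 CPM, closely grouped and below all the others (log2 fold change −1.29, SE 0.058, adjusted p = 6.69e-11). Itgav, the alpha subunit shared by the receptors for vitronectin and latent TGF-beta (chromosome 2, 83724397 to 83806916), was at 146, 153.9 and 144.4 against 138.2, 144.4 and 150.1 CPM. Its groups overlapped (log2 fold change −0.04, SE 0.057, adjusted p = 0.542).

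Itga8, which pairs with the product of Itgb1 and binds nephronectin (chromosome 2, 12106632 to 12301922), was at 1.38, 0.744 and 0.893 CPM in the control-labelled libraries and at 16.2, 14.5 and 18.6 CPM in si-Rbm22 (log2 fold change 4.02, SE 0.204, adjusted p = 2.46e-10). Itga2b, the fibrinogen receptor subunit of platelets (chromosome 11, 102453297 to 102470122), went the other way, from 9.13, 8.27 and 9.39 to 1.31, 1.83 and 1.54 CPM (log2 fold change −2.51, SE 0.188, adjusted p = 1.76e-08). Platelet markers were low, and their sum moved with Itga2b. The 5 present in the table, of 6 listed, summed to 3.43 to 5.37 CPM in the control-labelled libraries and 0.222 to 0.506 CPM in si-Rbm22. Both that were tested fell: Gp1bb, a subunit of the platelet receptor for von Willebrand factor, had 145, 172 and 101 reads against 0, 5 and 5 (log2 fold change −5.37, adjusted p = 2.51e-07), and Ppbp, a platelet chemokine gene, had 16, 19 and 17 against 6, 0 and 1 (adjusted p = 0.0025). Gp1bb made up most of the sum in the control-labelled libraries, at a mean of 3.88 CPM. The untested markers did not fall together. Gp9 had 0 reads in the control-labelled libraries and 1, 0 and 6 in si-Rbm22. Pf4 had 6, 0 and 0 reads against 0, 3 and 6, and Gp1ba 5, 4 and 1 against 8, 0 and 1. The part of platelets or megakaryocytes in the Itga2b result was not tested.

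Itga4 and Itga9 rose from nearly nothing. Their products form a sequence family of their own and bind cell adhesion molecules such as that of Vcam1 as well as matrix proteins. Itga9 (ENSMUSG00000039115; chromosome 9, 118606690 to 118901003) had 3, 3 and 6 reads in the control-labelled libraries and 2048, 1727 and 1373 in si-Rbm22. This is a ratio of 417.6, with 95% counting bounds of 238.9 and 808.7 (adjusted p = 9.06e-11). Itga4 (ENSMUSG00000027009; chromosome 2, 79255426 to 79333123) had 6, 5 and 16 reads against 713, 701 and 1359, a ratio of 100 with an interval of 68.6 to 152 (adjusted p = 2.27e-06). In both groups, replicate 3 stood above the others for Itga4. The log2 fold change was 6.62 (SE 0.453) with all libraries and 7.32 (SE 0.52) without si-Control replicate 3. This gene is uncertain, since 1124 of its exonic bases lie opposite exons of Cerkl and the strand setting of the counting is unknown. Endothelial markers moved with these genes: 8 of 8 were higher, from a summed 4.84 to 5.49 CPM to 400.1 to 444.6 CPM, with Tie1 and Emcn at 0 reads in the control-labelled libraries. All tested cardiomyocyte, leukocyte, epicardial and mesothelial, Schwann cell and epithelial markers rose as well. The part of any of these cells in the result was not tested.

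The alpha subunits of leukocytes were low everywhere, and 2 of the 3 tested were higher in si-Rbm22. Itgax, the dendritic cell and macrophage subunit also known as CD11c, had 0 reads in the control-labelled libraries and 98, 121 and 96 in si-Rbm22, at least 102.2-fold higher against a floor of 3 reads over the group. Itgal, the lymphocyte subunit that binds the Icam1 product, had 1, 1 and 2 reads against 25, 43 and 30 (ratio 23.8, counting interval 9.02 to 89.3, adjusted p = 1.24e-05). Itgae had 11, 14 and 16 against 2, 1 and 15 reads and did not pass (adjusted p = 0.132). Without si-Rbm22 replicate 3, which held 15 of its 18 reads in that group, Itgae had a log2 fold change of −3.12 (SE 0.88, adjusted p = 0.00142).

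Itgad had 3 reads in all, and Itgam, the CD11b subunit of monocytes, had 0, 0 and 1 against 0, 9 and 2. Of the 5024 exonic bases of Itgam, 3450 are shared with Gm49368 on the same strand, a gene with no row among those analysed here, so its level is uncertain. Itgb2 encodes the beta subunit that pairs with the products of Itgad, Itgal, Itgam and Itgax. It had 12, 27 and 22 reads against 138, 202 and 194 (ratio 8.52, counting interval 6.53 to 11.3, edgeR adjusted p = 5.24e-07). Itgb7 had 8 to 14 against 10 to 29 reads, with overlapping groups, and did not pass (adjusted p = 0.109), except without si-Rbm22 replicate 2 (log2 fold change 1.25, adjusted p = 0.0285). Leukocyte markers moved with Itgax, Itgal and Itgb2: 10 of 10 were higher. They summed to 1.96 to 3.11 CPM in the control-labelled libraries and 82.7 to 98.7 CPM in si-Rbm22. Adgre1, Tyrobp, C1qb and Laptm5 were at 0 reads in the former. Of 5 listed T and NK cell markers, 2 had a row, Cd2 and Cd8a, with 0 reads in the control-labelled libraries and at most 5 in any si-Rbm22 library. Every tested cardiomyocyte, endothelial, epicardial and mesothelial, Schwann cell and epithelial marker was higher as well. The part of any of these cells in these values was not tested.

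Itgb1, the beta subunit that most alpha subunits share, was the most abundant integrin transcript and had the smallest fold change of the called members. It was at 981.7, 1026 and 1051 CPM in the control-labelled libraries and at 1103, 1169 and 1249 CPM in si-Rbm22 (ENSMUSG00000025809; chromosome 8, 128685654 to 128733200). The groups did not overlap (log2 fold change 0.20, SE 0.061, adjusted p = 0.00683). The call was lost without si-Control replicate 1 (log2 fold change 0.17, adjusted p = 0.0613).

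Of the other beta subunits that pair with the Itgav product, 2 fell and 2 rose. Itgb5, a vitronectin receptor subunit (ENSMUSG00000022817; chromosome 16, 33829665 to 33949338), was at 554.5, 563.9 and 529 CPM in the control-labelled libraries and at 138.5, 169.5 and 145.3 CPM in si-Rbm22 (log2 fold change −1.86, SE 0.074, adjusted p = 1.86e-11). Itgb3, which also pairs with the Itga2b product (chromosome 11, 104608000 to 104670476), went from 72.3, 78.3 and 78.2 to 15.9, 19.9 and 16.9 CPM (log2 fold change −2.12, SE 0.085, adjusted p = 1.94e-11). For both, the highest si-Rbm22 library was below the lowest control-labelled library by more than the spread within either group.

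Itgb8 and Itgb6, whose products with that of Itgav bind and activate latent TGF-beta, rose. Itgb8 (ENSMUSG00000025321; chromosome 12, 119158022 to 119238802) had 29, 27 and 21 reads against 1958, 1645 and 1992, a ratio of 70.7 with a counting interval of 56.5 to 89.8 (adjusted p = 3.17e-14). Itgb6, known from epithelia (chromosome 2, 60598292 to 60722643), was at 1.27, 1.02 and 1.5 CPM against 17.7, 16.1 and 9.56 CPM (log2 fold change 3.52, SE 0.258, adjusted p = 8.81e-08). The si-Rbm22 libraries spread widely for Itgb6, with replicate 3 lowest. Itgb4, the partner of the Itga6 product in hemidesmosomes, was at 7.15 ± 0.484 against 9.57 ± 0.558 CPM (SD, n = 3 each). Its adjusted p was 0.00875 at a log2 fold change of 0.42 (SE 0.131). Itgb4 is uncertain, since 537 of its exonic bases lie opposite B230344G16Rik.

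Of 6 epithelial markers, 4 were tested and all 4 were higher, as Itgb6 and Itgb4 were. The 6 summed to 16.8 to 19 CPM in the control-labelled libraries and 299.8 to 360.1 CPM in si-Rbm22. Epcam, Krt5, Krt18 and Cdh1 had 0 reads in the control-labelled libraries, and Krt8 and Krt18, which mesothelium also expresses, made up most of the rise. Epcam had 14, 4 and 8 reads in si-Rbm22. Every tested cardiomyocyte, endothelial, leukocyte, epicardial and mesothelial and Schwann cell marker was higher as well. The part of any of these cells in the result was not tested.

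Over all 8 beta genes and per kilobase of exon, Itgb1 made up 59.6% ± 1.33 in the control-labelled libraries and 83.9% ± 1.36 in si-Rbm22, while Itgb5 went from 36.9% ± 1.39 to 12.4% ± 1.21 (SD, n = 3 each). Over the 18 alpha genes, Itga3 went from 10.6% ± 0.277 to 34.5% ± 0.944 and led in si-Rbm22. In the control-labelled libraries, Itga5 (39.3% ± 0.633) and Itga7 (26.2% ± 0.207) led. The order of those 2 depends on the length used: per kilobase of the longest annotated transcript, Itga7 had 38% and Itga5 31.6%. Of the laminin alpha chains, Lama4 led in the control-labelled libraries and Lama5 in si-Rbm22 by either length.

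**Figure D3:**
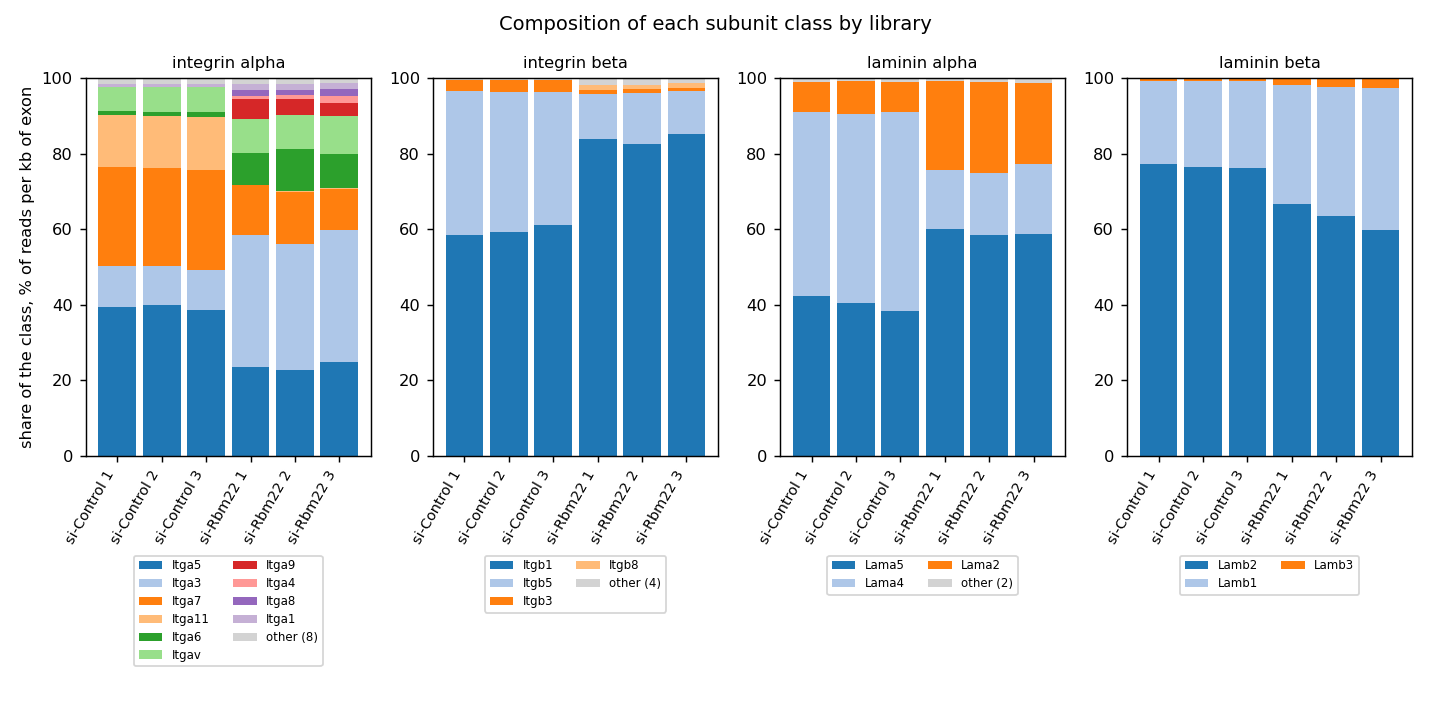
Share of each gene in the reads per kilobase of exon of its class (integrin alpha and beta, laminin alpha and beta), in percent, by library, with genes under 1% in every library pooled as other. The 3 libraries of a group look alike, and the leading alpha integrin and laminin alpha genes differ between the groups, while Itgb1 and Lamb2 lead in all 6 libraries.

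All 11 laminin genes were called, 8 higher and 3 lower in si-Rbm22, against a background of 82% called, 43.1% higher and 38.9% lower. Among the alpha chains, Lama4, found in the basement membranes of vessels and of developing muscle (ENSMUSG00000019846; chromosome 10, 38965515 to 39110188), was at 244.3, 262.2 and 255.9 CPM in the control-labelled libraries. It was at 89.3, 92.9 and 86.3 CPM in si-Rbm22, a tight group well below (log2 fold change −1.51, SE 0.057, adjusted p = 1.11e-11). Lama2, the main alpha chain around adult muscle fibres (ENSMUSG00000019899; chromosome 10, 26980036 to 27619758), went from 54.1, 60.9 and 53.4 to 183.9, 184.6 and 137.9 CPM (log2 fold change 1.59, SE 0.111, adjusted p = 2.27e-07). Lama5, of epithelial and vessel basement membranes (ENSMUSG00000015647; chromosome 2, 180176373 to 180225859), went from 200.9, 198.7 and 174.7 to 326.5, 313.8 and 261 CPM (log2 fold change 0.65, SE 0.086, adjusted p = 1.78e-05). For both Lama2 and Lama5, si-Rbm22 replicate 3 was the lowest of its group and still above every control-labelled library.

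The remaining alpha chains were low. Lama1, the chain of early embryonic basement membranes, had 105 to 128 reads in the control-labelled libraries and 20 to 33 in si-Rbm22 (ratio 0.205, counting interval 0.157 to 0.265, adjusted p = 9.67e-06). Lama3, an alpha chain of the laminin that anchors epithelia, had 2, 10 and 7 reads against 130, 159 and 139 (ratio 21.9, counting interval 13.9 to 36.8, adjusted p = 1.68e-07). Per kilobase, Lama4 made up 50.6% ± 2.06 of the alpha class in the control-labelled libraries and 16.8% ± 1.47 in si-Rbm22. Lama5 made up 40.3% ± 2.13 and 59.2% ± 0.799, and Lama2 8.24% ± 0.345 and 23.1% ± 1.26 (SD, n = 3 each).

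The widely expressed beta chains differed by smaller folds. Lamb2, the chain concentrated at neuromuscular and vascular basement membranes (chromosome 9, 108479736 to 108490530), was at 514.8, 520.7 and 481.6 CPM against 383.2, 370.1 and 291.9 CPM (log2 fold change −0.54, SE 0.091, adjusted p = 0.00019). Lamb1, the widespread beta chain (chromosome 12, 31265234 to 31329644), was at 237, 252.8 and 237.4 against 294.6, 325.7 and 299.4 CPM (log2 fold change 0.34, SE 0.059, adjusted p = 0.000105). Neither pair of groups overlapped, although both differences were under 1.5-fold. Lamb3 rose from 5.05 ± 0.281 to 13.1 ± 1.55 CPM (SD, n = 3 each), with an adjusted p of 4.23e-07 at a log2 fold change of 1.37 (SE 0.138). Lamb2 stayed the leading beta chain per kilobase of exon, with 76.7% ± 0.612 and 63.3% ± 3.46 of the class. Its lead in si-Rbm22 depends on the length used. Per kilobase of the longest annotated transcript, Lamb2 had 52.5% there and Lamb1 45.2%. In si-Rbm22 replicate 3, Lamb1 had more reads than Lamb2, at 11243 against 10960.

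Summed markers of several cell types rose beside the laminins that were higher, and those of others fell. The sum of the 7 epicardial and mesothelial markers, all higher, went from 50.2 to 53.7 CPM in the control-labelled libraries to 2077 to 2267 CPM in si-Rbm22. That of the 8 endothelial markers, all higher, went from 4.84 to 5.49 CPM to 400.1 to 444.6 CPM, and that of the 6 epithelial markers, with 4 of 4 tested higher, from 16.8 to 19 CPM to 299.8 to 360.1 CPM. Upk3b, Upk1b, Tie1, Emcn, Epcam, Krt5, Krt18 and Cdh1 had 0 reads in the control-labelled libraries. Cardiomyocyte, leukocyte and Schwann cell markers rose as well, the last from 1.79 to 2.09 CPM to 86.2 to 95.4 CPM. The fibroblast sum fell, from 10734 to 11707 CPM to 4621 to 4695 CPM. The 6 smooth muscle and pericyte markers, 3 higher and 3 lower, fell in sum from 2723 to 2790 CPM to 1250 to 1592 CPM. Skeletal muscle precursor and platelet sums fell too. The part of these cells in the laminin results was not tested.

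Among the gamma chains, Lamc1 and Lamc3 were higher in si-Rbm22. Lamc1, present in most laminins (ENSMUSG00000026478; chromosome 1, 153218922 to 153332786), went from 400.6, 398.2 and 381.3 to 874.5, 865.2 and 799.5 CPM (log2 fold change 1.11, SE 0.058, adjusted p = 3.45e-10). Lamc3 had 0 reads in the control-labelled libraries and 83, 92 and 100 in si-Rbm22, at least 89.2-fold higher against a floor of 3 reads over the group.

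Of 25 other components of the basement membrane, 14 were higher in si-Rbm22, 5 lower and 6 not past the test, with a median log2 fold change of 0.65. Among all genes tested, 82% were called, 43.1% higher and 38.9% lower. The type IV collagen chain gene Col4a5 rose from 76.3 ± 2.63 to 479.6 ± 14 CPM (log2 fold change 2.65, SE 0.059, adjusted p = 3.94e-14), and the matrix glycoprotein gene Tinagl1 from 2.09 ± 0.498 to 738.4 ± 61.4 CPM (SD, n = 3 each). Col4a3 and Col4a4, which encode further type IV chains, had ratios of 6576 (counting interval 1180 to 259793) and 970.1 (492.1 to 2248). The only read of Col4a3 among the control-labelled libraries was in replicate 2. Without that library the fitted log2 fold change, 14.11 against 12.23 with all libraries, stands against 0 reads and is no bound. Nid2, Hspg2 and Agrn, which encode nidogen-2, perlecan and agrin and were singled out after their values were seen, did not pass, with log2 fold changes of −0.06, −0.11 and −0.04.

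Genes for the other laminin receptors and for the sugar chain on dystroglycan were 9 higher, 7 lower and 2 not past the test of 18 (median log2 fold change 0.07). Bcam, which binds laminins that contain the Lama5 chain, rose from 4.79 ± 0.596 to 340.7 ± 43.3 CPM (log2 fold change 6.15, SE 0.123, adjusted p = 1.62e-12). Mcam, an endothelial and pericyte receptor for Lama4 laminins, rose from 9.96 ± 1.07 to 140.8 ± 17.2 CPM (SD, n = 3 each). On the log2 scale, the syndecan genes Sdc1 and Sdc2, for heparan sulfate proteoglycans of the cell surface, fell by 2.37 (SE 0.062) and by 2.21 (SE 0.062). Dag1, the dystroglycan gene, chosen after its value was seen, went from 479.1 to 957.4 CPM.

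Ligand genes of the integrins were 15 higher and 17 lower of 32 tested (median log2 fold change −0.63). Their summed level was 23415 ± 829.9 CPM in the control-labelled libraries and 9958 ± 483.8 CPM (SD, n = 3 each) in si-Rbm22. Of 39 listed, 36 had a row. Tnc, the tenascin-C gene, whose product binds the Itga9 and Itgav subunits, had a log2 fold change of −3.48 (SE 0.063, adjusted p = 5.83e-15), and Thbs3, a thrombospondin gene, one of −3.78 (SE 0.106). Ccn2, a matricellular ligand gene also known as Ctgf, rose from 24.8 ± 0.458 to 921.6 ± 126.7 CPM, and F11r, a tight junction protein gene whose product binds the Itgal receptor, from 26.1 ± 1.58 to 133.4 ± 6.87 CPM. Fn1, the fibronectin gene, chosen after its value was seen, held the largest part of the summed fall, at 10440 against 3821 CPM.

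**Figure D4:**
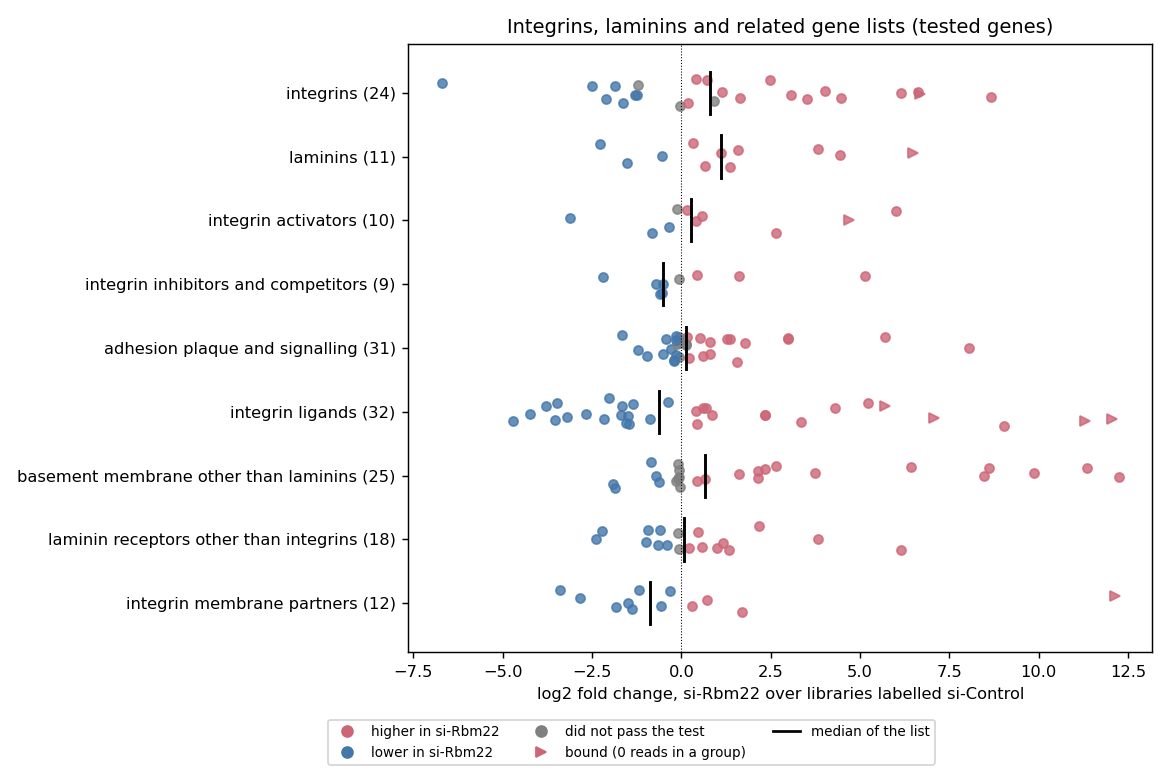
Log2 fold change, si-Rbm22 over si-Control, of every tested gene among integrins, laminins and 7 related lists, with the median of each as a black bar and bounds for genes with 0 reads in a group as triangles. Medians lie between −0.88 for membrane partners and 1.11 for laminins, and every list has genes on both sides of 0.

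Inside the cell, genes listed as integrin activators and genes listed as integrin inhibitors or competitors were called in both directions. Of 10 activator genes, 6 rose, 3 fell and 1 did not pass (median log2 fold change 0.28). Fermt2, the kindlin of muscle and most adherent cells, rose by 0.40 on the log2 scale (SE 0.053, adjusted p = 8.14e-06). Fermt3, the kindlin of blood cells, had a ratio of 6.37 (counting interval 4.66 to 8.89), and Rasgrp2, an exchange factor of platelets and leukocytes that activates Rap, one of 70.6 (27.3 to 260.8). Apbb1ip, the adaptor that brings talin to integrins, fell from 43.7 ± 1.64 to 5.01 ± 0.753 CPM (SD, n = 3 each). The genes listed as integrin inhibitors or competitors were 3 higher, 5 lower and 1 not past the test of 9 (median −0.50). On the log2 scale, Kank1 and Dab2 rose by 5.15 (SE 0.096) and 1.62 (SE 0.061), and Dok1 and the filamin gene Flna fell by 2.19 (SE 0.081) and by 0.61 (SE 0.053).

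Adhesion plaque and signalling genes were 14 higher, 11 lower and 6 not past the test of 31 tested (median log2 fold change 0.13). The adaptor gene Lims2 rose from 6.57 ± 0.246 to 52.3 ± 5.01 CPM and Pdlim5, of the muscle Z-disc, from 180.4 ± 6.58 to 623.6 ± 56 CPM. Tns4, a tensin gene, had a ratio of 277.1 (counting interval 134.3 to 690.2). Its log2 fold change was 8.04 with all libraries and 9.17 without si-Control replicate 3. Tns2 fell by 1.67 on the log2 scale (SE 0.061). Membrane partners of integrins were 8 lower and 4 higher of 12 (median −0.88). The tetraspanin gene Cd82 fell by 2.83 on the log2 scale (SE 0.061), and Cd63, of the same family, from 812.7 ± 28.2 to 286.7 ± 22 CPM (SD, n = 3 each). Cd47 fell by 1.39 (SE 0.057) on the log2 scale, and Plaur, the urokinase receptor gene, rose by 1.71 (SE 0.068) on that scale. Every tested ligand and membrane partner gene was called, and the other 5 lists each held 1 or more genes that did not pass. Their counts stand against 82% called among all genes, 43.1% higher and 38.9% lower.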

How the data were processed

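RNA of 6 cultures was sequenced, 3 per group. The authors deposited 1 table of raw read counts per gene, with 18951 rows. Build GRCm38 and the tools HISAT2, HTSeq, fastp and DESeq2 are named per the submitters' processing notes. Their versions, the annotation release and the strand setting: not given in the sources used here. Of the rows, 18856 were matched by gene ID to GENCODE M21, and 0 columns of sample values went unused.

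Counts were tested with edgeR 4.0.16 (R 4.3.3): genes kept by filterByExpr, TMM scaling, robust quasi-likelihood fit, Benjamini-Hochberg adjustment over 14621 genes, threshold 0.05. All 6 libraries entered 1 fit with group as the only term. CPM values are TMM-scaled. SEs were derived from each gene's log2 fold change and F statistic (size of the former over the root of the latter). Where a group held fewer than 100 reads of a gene, the ratio of CPM is given with an exact 95% counting interval, which covers counting error only. Where it held 0, a floor of 3 reads over the group gives a bound. Shares are of reads per kilobase of exon union within a class. The test was checked on simulated counts in which few genes changed. Most tested genes were called in these data, so that check cannot vouch for the scaling or the calls here. RefSeq promoter windows (GRCm38.p6) were matched by symbol.

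The values of 1 member are not reported here; it stays in the counts of members. The other members are all accounted for. Members with a mean of at least 5 CPM in a group were described with values, and from each related list the 4 tested genes with the smallest p. Other genes are named as chosen after their values were seen. The members and lists were chosen with earlier results of these data known. Alternatives were other scalings and filters, a 2-fold threshold, a replicate block, DESeq2 1.42.0, limma-voom (limma 3.58.1), other lengths and leaving out each library.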

Additional observations from a re-analysis of the deposited data

How the results depend on the processing

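Of the 442 alternative fold changes computed for the 35 tested members, 438 kept direction and side of the threshold, and 0 changed sign. The exceptions were Itgb1, which lost its call without si-Control replicate 1 (log2 fold change 0.17, edgeR adjusted p = 0.0613), Itgae, which was called without si-Rbm22 replicate 3 (−3.12, adjusted p = 0.00142) and by limma-voom (−1.88, adjusted p = 0.0292), and Itgb7, which was called without si-Rbm22 replicate 2 (1.25, adjusted p = 0.0285). Without si-Control replicate 3 the log2 fold change of Itga4 moved from 6.62 to 7.32. Leaving out 1 library gave 31 to 33 members called, 20 to 22 integrins and 11 laminins. With at least 10 CPM required in 3 libraries, only 22 members and 10497 genes were tested: 21 members were called, 14 of them higher, and 13 integrins, 8 of them higher. A 2-fold threshold left 6301 genes called of all tested, 3566 higher and 2735 lower. The labels do not say whether the same replicate numbers pair the samples. Deviations of same-numbered libraries correlated at −0.0164, 0.00689 and 0.00841. These values show no pairing but cannot exclude it, since deviations over all tested genes also hold counting error. With the replicate block, 32 members were called, as without it, and 11945 genes of all. Shares within a class depend on the length used, and the longest-transcript length was chosen after seeing the data. Few reads limit Itgad, Itgam, Itgae, Itgal and Itgb7, which had fewer than 50 reads in every library. Of these, only Itgal was called with all libraries. Itga2, Itga4, Itga9, Itgb2, Itgb8, Lama1 and Lama3 had fewer than 50 reads in each library of a group, and carry the counting intervals given above.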

Other observations

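Some members lie side by side in the genome. Itga2 and Itga1 are 20995 bases apart on chromosome 13, on the same strand and with no protein-coding gene between them, and both were higher in si-Rbm22. Itgam, Itgax and Itgad follow each other on chromosome 7, with gaps of 11055 and 3718 bases, and Itgax alone had enough reads to be tested.

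The following genes were chosen after their values were seen. Itgb1bp2, which encodes melusin, a striated muscle protein that binds the tail of the beta subunit from Itgb1, rose from 0.591 CPM to 30.8 CPM in si-Rbm22 (log2 fold change 5.70). Col4a1 and Col4a2, the genes of the most widespread type IV collagen chains, went from 555.4 to 2458 CPM and from 439.8 to 1942 CPM. Tln1 and Ilk, which encode talin-1 and integrin-linked kinase, did not pass the test, with log2 fold changes of −0.11 and −0.07.

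Replicate 3 of si-Rbm22, with the lowest summed cardiomyocyte markers of its group (26280 CPM), was the lowest of the 3 for 11 of the 23 members with a mean of at least 5 CPM in si-Rbm22 (47.8%) and the highest for 5 (21.7%). Over the 10996 genes at that level it was lowest for 39.2% and highest for 38.0%. This was described after the values were seen, and its cause was not tested.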
